A study of Mus musculus with 32 samples.

Results

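The comparison described here set 4 core libraries of wildtype (WT) tendon assembloids whose hydrogel held macrophages against 4 core libraries of WT assembloids whose hydrogel held fibroblasts. These 8 libraries, of 32 in the series, were chosen from their labels alone, and it was asked which transcripts of the same core tissue differed with the type of cell around it. A tendon assembloid is a tail tendon fascicle, the core, clamped within a collagen-1 hydrogel. Every core used here was of genotype B6.129S2-Il6tm1Kopf/J Il-6+/+, the wildtype of an interleukin-6 (Il6) knock-out line, and was taken down at day 7 of culture in DMEM/F12 with fetal bovine serum, antibiotics and L-ascorbic acid. The study's methods give mice of both sexes aged 12 to 15 weeks, and a co-culture medium that also contained macrophage-colony stimulating factor, a survival signal for macrophages. The seeded fibroblasts, which the labels call progenitors, were a mixed population digested from Achilles tendons, expanded for 2 to 4 passages and pooled from 6 mice. No source used here says where the macrophages came from. Each core library was a pool of 20 to 24 explants from a single mouse, so the 4 replicates of a group are separate mice. Whether cores of different groups shared a mouse is not stated. As background, the same genes were read in 4 WT cores within cell-free hydrogels and in 6 pools of fibroblast-laden hydrogel from around WT cores. The 32 samples of the series include no hydrogel laden with macrophages.

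Tendon cores are dense bundles of collagen fibrils kept by sparse, elongated tenocytes that express scleraxis (Scx) and tenomodulin (Tnmd), with a few resident macrophages among them. Macrophages are phagocytes that survive on signals through the receptor encoded by Csf1r. They take up lipid, debris and apoptotic cells, and they release cytokines and chemokines that recruit further leukocytes. Tendon fibroblasts of the outer layers divide, migrate and lay down collagen and provisional matrix after injury. The labels give the cell type of the cores as mixed tenocytes. Tendon transcripts were present in all 8 libraries, with Col1a1, the main chain of type I collagen, at 3680 to 15800 CPM (counts scaled to a common library size) and Tnmd at 62.2 to 442 CPM. Macrophage transcripts were present in all of them as well, including the cores that had met no added macrophages: Lyz2, encoding lysozyme, stood at 3020 to 7100 CPM beside macrophages, 5900 to 6650 CPM beside fibroblasts and 6210 to 8930 CPM in cell-free hydrogels. In bulk RNA, fewer cells of a type and less RNA per cell cannot be told apart, and neither can RNA of core cells and RNA of hydrogel cells that stayed on the core.

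The promoters of 7 genes named below were picked by hand as examples and are shown first. Each is the 250 bases upstream of the transcription start in the RefSeq annotation of mouse build GRCm38.p6, written 5′ to 3′ on the strand of its gene. All 7 hold the motif marked in them, and the share of windows that do is given after them. For Fcrls, Cd5l and Csf3r, immune genes that were higher beside macrophages, and for Tnf, a cytokine gene that was lower, capitals mark GAGGAA or its reverse complement, the core of the site bound by PU.1, the master regulator of macrophage genes.
Fcrls, chr3:87263525-87263774, minus strand: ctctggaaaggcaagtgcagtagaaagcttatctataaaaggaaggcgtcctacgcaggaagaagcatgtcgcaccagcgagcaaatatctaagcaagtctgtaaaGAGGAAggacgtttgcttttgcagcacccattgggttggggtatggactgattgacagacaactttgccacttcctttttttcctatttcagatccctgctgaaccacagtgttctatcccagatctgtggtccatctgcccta
Cd5l, chr3:87357631-87357880, plus strand: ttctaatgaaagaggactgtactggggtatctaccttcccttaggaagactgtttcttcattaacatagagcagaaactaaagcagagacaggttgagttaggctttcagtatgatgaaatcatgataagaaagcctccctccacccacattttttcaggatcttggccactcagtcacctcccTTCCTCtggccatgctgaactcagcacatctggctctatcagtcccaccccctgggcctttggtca
Csf3r, chr4:126024409-126024658, plus strand: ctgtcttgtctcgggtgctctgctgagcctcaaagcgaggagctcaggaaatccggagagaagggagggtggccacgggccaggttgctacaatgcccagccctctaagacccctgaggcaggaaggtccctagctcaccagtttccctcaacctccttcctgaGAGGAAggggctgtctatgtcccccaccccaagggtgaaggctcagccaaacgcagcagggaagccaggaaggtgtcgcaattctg
Tnf, chr17:35202008-35202257, minus strand: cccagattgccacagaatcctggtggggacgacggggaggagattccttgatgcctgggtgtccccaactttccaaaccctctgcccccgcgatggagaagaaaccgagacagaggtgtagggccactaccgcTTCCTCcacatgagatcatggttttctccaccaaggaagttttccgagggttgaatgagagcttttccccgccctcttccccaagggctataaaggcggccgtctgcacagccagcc
For Car9 and P4ha1, genes of the response to low oxygen that were lower beside macrophages, capitals mark ACGTG or its reverse complement, the core of the hypoxia response element.
Car9, chr4:43506776-43507025, plus strand: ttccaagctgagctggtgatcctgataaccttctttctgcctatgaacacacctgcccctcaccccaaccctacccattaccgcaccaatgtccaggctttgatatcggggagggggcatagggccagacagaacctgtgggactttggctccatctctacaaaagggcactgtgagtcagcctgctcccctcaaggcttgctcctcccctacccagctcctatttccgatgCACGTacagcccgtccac
P4ha1, chr10:59323046-59323295, plus strand: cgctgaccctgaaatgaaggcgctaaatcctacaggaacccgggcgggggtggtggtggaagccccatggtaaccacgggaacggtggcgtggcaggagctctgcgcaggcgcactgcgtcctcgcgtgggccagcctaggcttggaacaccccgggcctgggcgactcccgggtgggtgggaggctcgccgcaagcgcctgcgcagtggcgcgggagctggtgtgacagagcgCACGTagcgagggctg
For Hmgcs1, an enzyme of cholesterol synthesis that was lower beside macrophages, capitals mark a match to TCACNCCAC, the sterol regulatory element.
Hmgcs1, chr13:119690101-119690350, plus strand: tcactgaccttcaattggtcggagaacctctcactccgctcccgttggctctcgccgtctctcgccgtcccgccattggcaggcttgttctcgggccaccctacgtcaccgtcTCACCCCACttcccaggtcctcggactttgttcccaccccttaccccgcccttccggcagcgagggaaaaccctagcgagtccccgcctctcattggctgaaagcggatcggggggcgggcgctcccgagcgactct

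The 3 motifs were searched on both strands of all 32851 such windows, of 27025 genes, and none of the 3 is contained in another. GAGGAA was found in 23.3% of all windows, in 26.4% of the windows of genes called higher beside macrophages and in 23.7% of those of genes called lower. Among the 20 genes of the macrophage identity list with a window, 11 held it, against 26.3% of all tested genes with a window. ACGTG was found in 16.6% of all windows and in 20.5% of those of all genes tested. It was found in 14.1% of the windows of genes called higher and in 23.7% of those called lower. Counted by gene, it was found for 15 of the 22 hypoxia response genes with a window, against 24% of all tested genes with a window. The longer TCACNCCAC occurred in 1.05% of all windows and, of the 20 cholesterol and fatty acid synthesis genes with a window, only in that of Hmgcs1. These matches describe letters in a short window and were not tested as binding sites.

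Each library held 20360289 to 31127686 estimated counts beside macrophages, 30121114 to 37594625 beside fibroblasts and 20627049 to 34240500 in cell-free hydrogels, and 21470 to 23317 genes had at least 1 count. The 10 most abundant genes took 7.97 to 9.55% of counts beside macrophages and 10.1 to 13.8% beside fibroblasts, and the scaling factors of the trimmed mean of M values (TMM), which correct for such a difference, were 1.065 to 1.313 and 0.937 to 1.015. The first principal component (39.0% of variance) placed all 4 cores beside macrophages below 0 (−52.5 to −18.6) and all 4 beside fibroblasts between 15 and 18. Cell-free cores 1 to 4 lay at 7.2, 9.7, −0.9 and 40.5, so cell-free replicate 4 lay beyond every fibroblast core. Macrophage replicate 1, at −52.5, stood furthest from the rest of its group and also had the highest share of counts on genes that are not protein-coding, 1.62% against 0.943 to 1.15% in the other 3 macrophage cores and 0.854 to 1.01% beside fibroblasts. Replicates 1 and 2 of each group had few of the Y-linked transcripts that replicates 3 and 4 carried, and they differed in how few. The summed level of 4 Y-linked genes was 15.2 and 10.1 CPM in macrophage replicates 1 and 2, which is 6.36% and 4.24% of the level in macrophage replicates 3 and 4. In the matching fibroblast cores it was 0.624 and 1.45 CPM (0.234% and 0.544%), and in the matching cell-free cores 0.486 and 0.0865 CPM. Hydrogel pools of the fibroblast assembloids carried 20.6 to 167 CPM. The source of the Y-linked transcripts in those 2 macrophage cores was not tested.

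**Figure D1:**
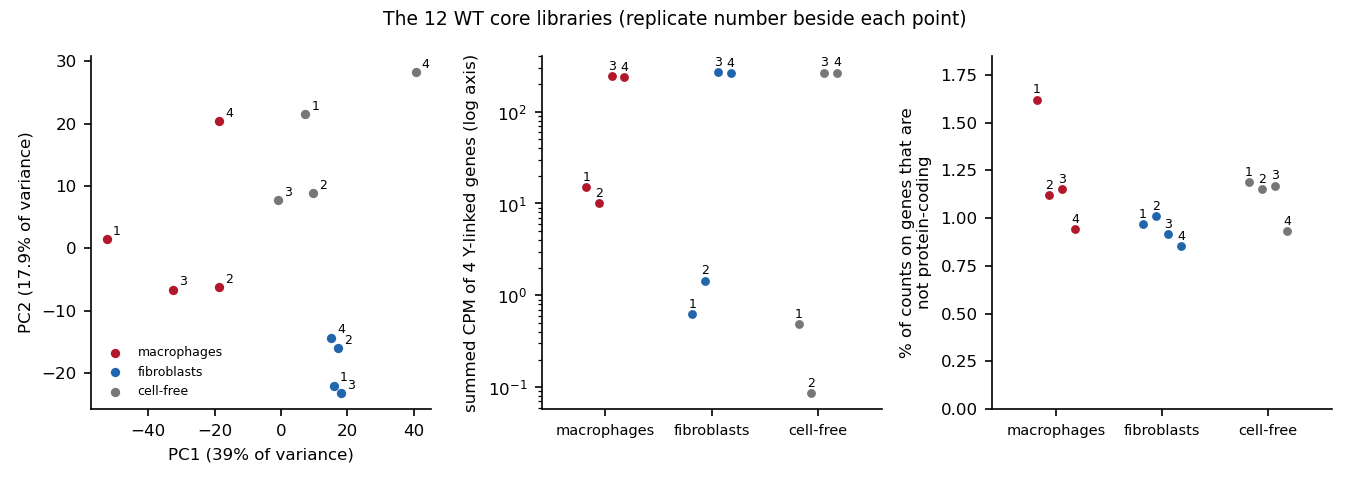
The 12 WT core libraries, coloured by the cells in the hydrogel, with the replicate number beside each point. The left panel plots the first 2 principal components of log2 CPM. On the first, cores beside macrophages (left of 0) and beside fibroblasts (15 to 18) do not overlap, and cell-free cores spread from −0.9 to 40.5. The middle panel plots the summed CPM of 4 Y-linked genes on a log axis. There, macrophage replicates 1 and 2 (15.2 and 10.1 CPM) lie above the same replicates of the other groups. The right panel plots the percent of counts on genes that are not protein-coding, highest in macrophage replicate 1 (1.62%).

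Of 16370 genes tested with edgeR's quasi-likelihood test, 865 (5.28%) were higher and 901 (5.5%) were lower beside macrophages than beside fibroblasts, at an adjusted p under 0.05 and a log2 fold change beyond 0.5. More than 2-fold differences made up 278 of the higher and 288 of the lower genes, and more than 4-fold differences 43 and 39. The median log2 fold change of all genes was 0.011. Scaling by library totals alone raised that median to 0.204 and gave 2223 higher and 479 lower genes, so that 82.3% of the called genes were higher, against 49.0% with TMM scaling. The count of higher genes depended on single libraries: it was 550, 548 and 1412 without macrophage replicates 1, 3 and 4, and 416, 526 and 354 without fibroblast replicates 1, 2 and 3. The count of lower genes ranged from 606 to 1111 over the same omissions. Replicates 1 and 2 alone gave 6 higher and 2 lower genes, and replicates 3 and 4 alone 123 and 222.

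The genes that were higher and those that were lower differed in kind. Gene models that are not protein-coding made up 25.6% of the higher genes (221 of 862 with an annotation), 1.0% of the lower genes (9 of 900) and 9.53% of all genes tested. The study's methods passed core pools by RNA concentration and a low minimum RNA integrity number. The conditions listed there do not include cores beside macrophages. Integrity values of single libraries were not at hand, and the part of RNA quality in this split was not tested. The longest annotated transcripts had similar median lengths, 3269 bases for the higher genes and 3052 for the lower. Many of the lower genes stood higher in the fibroblast hydrogel pools than in the cores beside fibroblasts. By the study's methods, such a pool mixed the seeded fibroblasts with core cells that had entered the gel. For 728 of the 901 lower genes (80.8%), the mean CPM in the 6 hydrogel pools was above that in the 4 cores beside fibroblasts, against 184 of the 865 higher genes (21.3%) and 7318 of the 14604 genes not called (50.1%). Whether cells of the hydrogel contributed RNA to the core libraries was not tested.

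**Figure D2:**
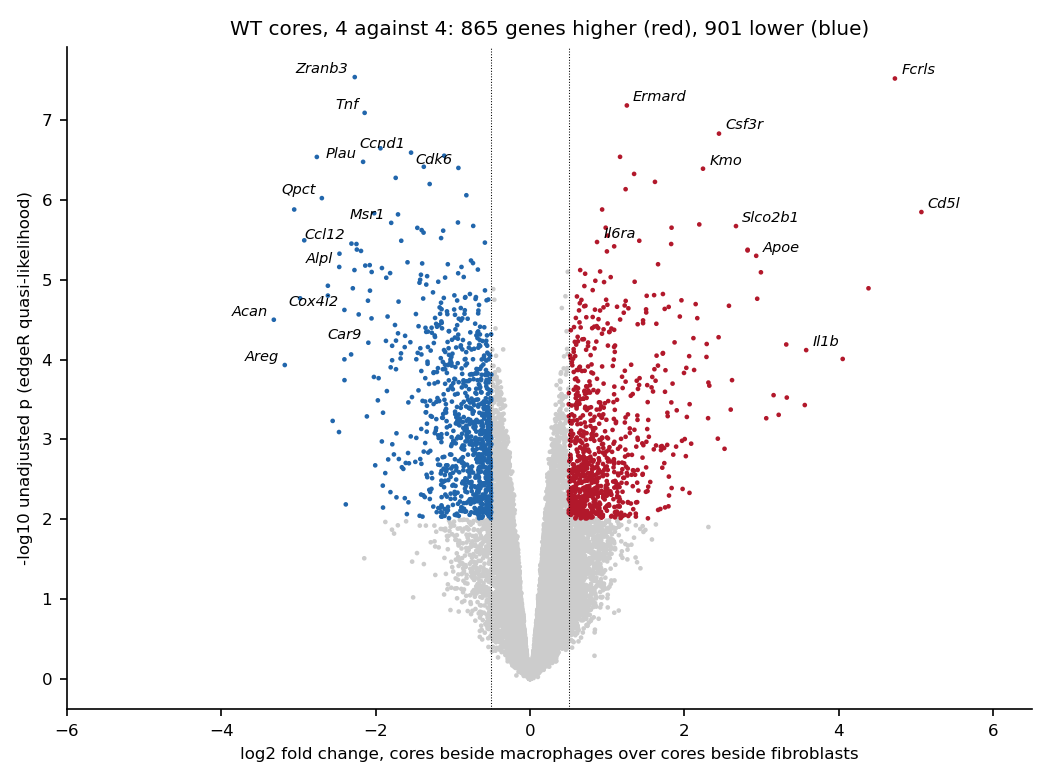
Each point is 1 of 16370 genes, with the log2 fold change of cores beside macrophages over cores beside fibroblasts on the horizontal axis and −log10 of the unadjusted p of edgeR's quasi-likelihood test on the vertical axis. Red points are the 865 higher genes, blue points the 901 lower genes, and dotted lines mark a log2 fold change of 0.5 in either direction; Fcrls and Cd5l lie furthest to the right among the named genes, and Acan and Areg furthest to the left.

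Each niche was also compared with the cell-free hydrogel, in a fit of its own. Beside macrophages, 124 of 16441 genes (0.754%) were higher and 633 (3.85%) were lower than in cell-free cores. With the replicate number as a block, 240 were higher. The higher genes numbered 64, 58 and 226 without macrophage replicates 1, 3 and 4, and 71, 73 and 78 without cell-free replicates 1, 2 and 4. The lower genes numbered 357 and 233 without macrophage replicates 1 and 3, and 371 without cell-free replicate 2. Beside fibroblasts, 244 of 16188 genes (1.51%) were higher and 179 (1.11%) were lower than in cell-free cores. The higher genes numbered 41, 47 and 146 without fibroblast replicates 1, 3 and 4, and 94, 161 and 380 without cell-free replicates 1, 2 and 4. The lower genes numbered 8, 13 and 62 without fibroblast replicates 1, 3 and 4, and 37 without cell-free replicate 1. The 3 comparisons share samples, so in what follows their values are only set side by side.

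Immune receptor and macrophage genes were among those with the lowest p of being higher beside macrophages. Fcrls, an Fc receptor-like scavenger receptor of macrophages and microglia, stood at 72.4, 61.4, 58.7 and 118 CPM beside macrophages and at 4.09, 3.47, 3.12 and 1.5 CPM beside fibroblasts. The groups did not overlap, and the log2 fold change was 4.73 ± 0.32 (SE, adjusted p = 0.000247), a 26.5-fold difference. Cd5l, which encodes a secreted protein that keeps macrophages from apoptosis, stood at 11.1, 16, 20.9 and 47.3 CPM against 0.454, 1.04, 0.912 and 0.545 CPM, with macrophage replicate 4 at the top (5.07 ± 0.51, adjusted p = 0.000958). Csf3r, the receptor for granulocyte colony-stimulating factor, stood at 24.8, 18, 17.0 and 30.1 CPM against 3.92, 4.16, 4.80 and 4.32 CPM (2.45 ± 0.19, adjusted p = 0.000475). Cell-free cores carried these 3 transcripts at 0.607 to 3.59, 0.789 to 2.18 and 4.12 to 9.76 CPM, and the fibroblast hydrogels at means of 2.27, 0.912 and 2.90 CPM, all below the 4 macrophage cores.

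Further genes with a low p were transporters, enzymes and signalling genes. Slco2b1, an organic anion transporter, was at 4.76, 4.70, 5.31 and 8.90 CPM beside macrophages and at 0.662 to 1.29 CPM beside fibroblasts (log2 fold change 2.67 ± 0.28, adjusted p = 0.00108). Kmo, an enzyme of tryptophan breakdown along the kynurenine path, was at 4.49 to 7.06 CPM against 0.965 to 1.26 CPM (2.24 ± 0.20, adjusted p = 0.000475). Tlr9, the endosomal receptor for unmethylated DNA, was at 3.03 to 4.52 CPM against 0.567 to 1.02 CPM (2.19 ± 0.23, adjusted p = 0.00108). In none of these 3 genes did the groups overlap. As most genes were named for a low p, a lack of overlap, here and elsewhere, is no further support. Fgd2, an activator of the small GTPase Cdc42, and Vav2, an activator of related GTPases, were 3.56-fold and 1.97-fold higher. Zfyve28, Sema4a and Arhgap19 were 3.07-fold, 2.55-fold and 2.36-fold higher. The smallest spread was that of Ermard, at 35.2, 33.5, 32.3 and 31.1 CPM beside macrophages against 16.2, 14.8, 14.3 and 12.5 CPM beside fibroblasts (1.25 ± 0.09, adjusted p = 0.000333). Trpv4, a cation channel opened by stretch and swelling, was 1.91-fold higher. Cbx7, a Polycomb protein, and Dclre1c, the nuclease Artemis, were 2.24-fold and 2.01-fold higher, but each overlaps a neighbour that was higher too (Apobec3, 0.65, and Suv39h2, 0.95, on the log2 scale), so estimated counts may be shared between them.

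Among the genes with the strongest evidence of being lower, several serve division and survival. Ccnd1, cyclin D1, stood at 59.0, 84.5, 62.1 and 51.7 CPM beside macrophages and at 185, 215, 198 and 181 CPM beside fibroblasts (log2 fold change −1.54 ± 0.13, adjusted p = 0.000475). The groups did not overlap, and in cell-free cores it was 180 to 434 CPM. LTO1, which overlaps Ccnd1, was 2.16-fold lower. Cdk6, a kinase that partners with cyclin D1, was at 53.3 to 66.7 CPM against 106 to 126 CPM (−0.93 ± 0.08, adjusted p = 0.000475). Bcl2l1, which encodes the survival protein Bcl-xL, was 1.91-fold lower. It overlaps Cox4i2, which was lower by 5.29-fold and was singled out after its values were seen. Dusp6, a phosphatase that restrains ERK signalling and rises with it, was at 38.0 to 47.0 CPM against 73.0 to 85.5 CPM (−0.82 ± 0.08, adjusted p = 0.000717). Zranb3, a DNA remodelling enzyme of stalled replication forks, was at 11.6, 16, 11.0 and 13.1 CPM against 53.0, 73.8, 57.1 and 75.8 CPM (−2.27 ± 0.15, adjusted p = 0.000247). The Zranb3 locus contains an unnamed gene model that was lower as well, so its value may be shared.

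Other strongly lower genes encode secreted or membrane proteins. Qpct, an enzyme that modifies the ends of secreted peptides and chemokines, was at 2.38, 7.89, 4.59 and 5.44 CPM beside macrophages and at 29.3, 38.0, 34.7 and 34.8 CPM beside fibroblasts (−2.70 ± 0.26, adjusted p = 0.000741). Plau, the urokinase plasminogen activator, was at 28.9, 49.5, 48.0 and 52.9 CPM against 166, 191, 226 and 248 CPM (−2.16 ± 0.19, adjusted p = 0.000475). Both were more than 4-fold lower without overlap between groups, and cell-free cores carried both at levels near or above those beside fibroblasts (40.0 to 82.3 CPM for Qpct and 201 to 455 CPM for Plau). Kcne4, a potassium channel subunit, showed another order. It was at 14.2 to 21.6 CPM beside macrophages, 44.6 to 55.9 CPM beside fibroblasts and 9.49 to 37.3 CPM in cell-free cores, and it was 2.59-fold lower beside macrophages than beside fibroblasts. Tes, a protein of focal adhesions, and Lat2, an adaptor of immune receptors, were 2.46-fold and 3.27-fold lower, and Tnfsf9, the ligand of the costimulatory receptor 4-1BB, was 3.83-fold lower.

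General macrophage genes were split, with more of them lower than higher beside macrophages. Of 28 genes of macrophage identity, 3 were higher and 6 lower, with a median log2 fold change of −0.24 against 0.011 over all genes. For this list and those below, the shares over all genes tested were 5.28% higher and 5.5% lower. Their summed level was 6680 to 15200 CPM beside macrophages, 12000 to 13300 CPM beside fibroblasts, 13500 to 18400 CPM in cell-free cores and 13600 to 24800 CPM in the fibroblast hydrogels. Adgre1, the F4/80 antigen, was at 202, 387, 341 and 487 CPM beside macrophages and at 343, 370, 418 and 306 CPM beside fibroblasts (0.04 ± 0.21, adjusted p = 0.917), so the groups overlapped. Itgam, the integrin chain CD11b, was lower, at 86.5, 192, 107 and 164 CPM against 339, 313, 267 and 291 CPM (−1.09 ± 0.21, adjusted p = 0.0102). Cd14, the co-receptor for bacterial lipopolysaccharide, and the scavenger receptor Msr1 were lower too. Msr1 stood at 59.7, 123, 83.4 and 112 CPM against 341, 376, 313 and 333 CPM (−1.80 ± 0.19, adjusted p = 0.00108). Without macrophage replicate 4, 11 of the 28 were lower.

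The 3 members of that list that were higher were Csf1r, Clec4a1 and Aif1. Csf1r stood at 424, 593, 554 and 992 CPM against 414, 379, 361 and 342 CPM, and its lowest macrophage core lay close to the highest fibroblast core (0.83 ± 0.22, adjusted p = 0.0284). The call for Csf1r was lost without any 1 of the 4 fibroblast replicates (adjusted p from 0.0593 to 0.0819) and when all 5 core groups of the series were fitted together (adjusted p = 0.0536). Clec4a1, a lectin receptor of myeloid cells, was at 16.3 to 37.0 CPM against 10.9 to 14 CPM (1.08 ± 0.20, adjusted p = 0.00923). Aif1, the calcium-binding protein Iba1, was 1.68-fold higher, a call lost in the fit of all 5 core groups (adjusted p = 0.116). It was named after its values were seen. Cd68, Lyz2 and Ptprc, the pan-leukocyte marker CD45, were not called. Their log2 fold changes were −0.38 (adjusted p = 0.295), −0.32 (adjusted p = 0.405) and 0.13 (adjusted p = 0.506). Cd68 was called lower without macrophage replicate 4.

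Lists of macrophage states gave mixed counts. Of 11 tested markers of tissue-resident macrophages, none was higher and 2 were lower, with a median of 0.30 that was 0.03 without macrophage replicate 4. Of the 11, 2 were higher without macrophage replicate 2 or with the replicate block, and 1 was lower without macrophage replicate 2 or fibroblast replicate 1, 3 or 4. With library totals, 3 were higher and 1 lower. Folr2, a folate receptor of resident macrophages, was at 10.8 to 29.6 CPM against 54.8 to 60.5 CPM (−1.25 ± 0.24, adjusted p = 0.00949), and Igf1, insulin-like growth factor 1, was 1.59-fold lower. The call for Igf1 was lost without 4 of the 8 libraries (adjusted p from 0.0536 to 0.0744). Of 11 genes of alternative activation, 3 were higher and none lower, with a median of 0.21, and 1 was higher without fibroblast replicate 1 or 3. Clec10a, a lectin receptor for galactose-bearing ligands, was at 7.53, 7.74, 15.6 and 16.4 CPM against 1.22, 1.73, 2.45 and 1.60 CPM (2.82 ± 0.32, adjusted p = 0.00137). Arg1, arginase 1, and Irf4 were 3.28-fold and 2.22-fold higher. Both of those calls were lost without fibroblast replicate 1 or 3, that of Arg1 also without fibroblast replicate 4 and that of Irf4 also without fibroblast replicate 2 (adjusted p from 0.0586 to 0.067 for Arg1 and from 0.0558 to 0.0626 for Irf4). That of Irf4 was also lost in the fit of all 5 core groups (adjusted p = 0.0659).

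Of 15 genes of classical activation, 5 were lower and 1 was higher, with a median of −0.43. Tnf, tumour necrosis factor, stood at 4.31, 7.42, 4.43 and 5.72 CPM beside macrophages and at 25.7, 27.2, 21.5 and 26.0 CPM beside fibroblasts (−2.14 ± 0.16, adjusted p = 0.000333). Acod1, the enzyme that makes itaconate in activated macrophages, was at 2.42, 6.21, 3.00 and 3.04 CPM against 14.5, 19.2, 14 and 15.9 CPM (−2.05 ± 0.25, adjusted p = 0.00181). Cd40, a costimulatory receptor, was 2.02-fold lower. In these 3 genes every macrophage core was below every fibroblast core, and cell-free cores lay at or above the fibroblast cores for Acod1 and Cd40 in at least 3 of 4 libraries. Il1b, interleukin-1β, went the other way, at 4.27, 0.916, 1.93 and 4.43 CPM against 0.369, 0.158, 0.175 and 0.272 CPM (3.58 ± 0.56, adjusted p = 0.00437). Its natural inhibitor Il1rn, the interleukin-1 receptor antagonist, was lower, at 5.04, 5.29, 8.46 and 6.14 CPM against 21.0, 24.6, 24.3 and 35.3 CPM (−2.02 ± 0.20, adjusted p = 0.000958). The Il1b levels were low in every group and spread widely among the macrophage cores.

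The chemokines that draw monocytes were the immune group with the most members lower. Of 17 chemokines and receptors, 9 were lower and 2 higher, with a median of −0.57. Ccl12 was at 5.08, 8.90, 7.46 and 12.4 CPM beside macrophages and at 43.2, 40.5, 31.7 and 57.9 CPM beside fibroblasts (−2.31 ± 0.26, adjusted p = 0.00124). Ccl9 was at 32.9, 82.2, 54.9 and 77.3 CPM against 227, 245, 209 and 250 CPM (−1.86 ± 0.23, adjusted p = 0.00188). Ccl5 was at 6.27 to 12.1 CPM against 29.3 to 61.0 CPM, and was 4.91-fold lower. Ccl4 was 4.83-fold lower and overlaps Ccl3, which was lower as well (−1.61), so their estimated counts may be shared. Cx3cl1, fractalkine, was 1.80-fold lower, a call lost when all 5 groups of cores in the series were fitted together (adjusted p = 0.124). Among those that were higher was the receptor Cxcr4, named after its values were seen. Cxcr4 was at 12.2 to 42.1 CPM against 7.19 to 13.1 CPM, and its call was lost without fibroblast replicate 2, 3 or 4 (adjusted p from 0.0581 to 0.0718). Against cell-free cores, 7 of these chemokine genes were lower and 1 higher beside macrophages, and none was called beside fibroblasts. In the main comparison, 7 to 9 members were lower over the single-library omissions.

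**Figure D3:**
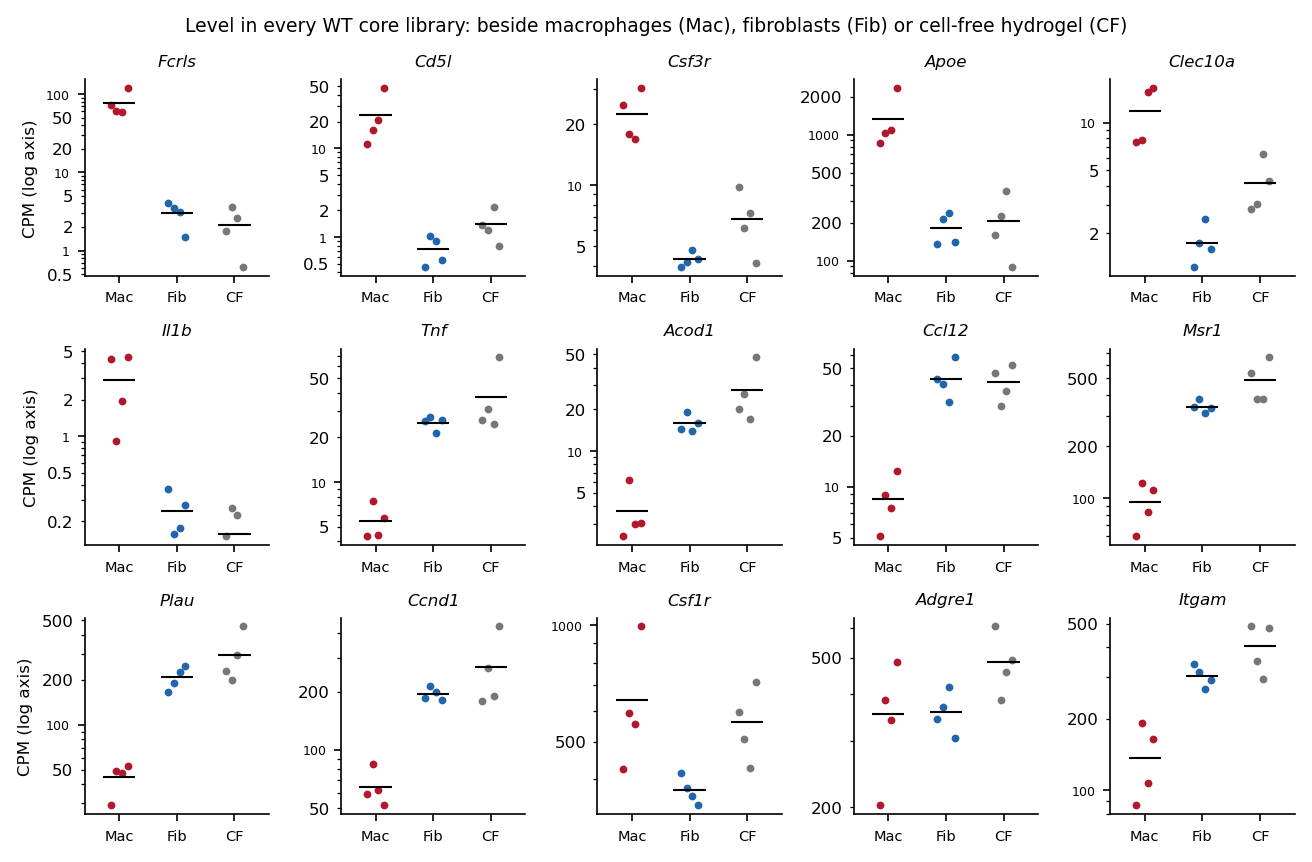
CPM of 15 genes in every WT core library on log axes, beside macrophages (red), beside fibroblasts (blue) and in cell-free hydrogels (grey), with a bar at the group mean. Fcrls, Cd5l, Csf3r, Apoe, Clec10a and Il1b lie higher in all 4 macrophage cores than in all 4 fibroblast cores, while Tnf, Acod1, Ccl12, Msr1, Plau, Ccnd1 and Itgam lie lower; Adgre1 overlaps. Cell-free replicate 4 has no Il1b count and is not drawn in that panel.

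Genes of lipid handling and of the lysosome were mostly lower where they were called. Of 23 genes of lipid-associated macrophages, 1 was higher and 4 were lower, with a median of −0.40. Apoe, the lipid carrier apolipoprotein E, was at 856, 1030, 1090 and 2330 CPM beside macrophages and at 136, 215, 238 and 140 CPM beside fibroblasts (2.93 ± 0.34, adjusted p = 0.00149), the highest value being that of macrophage replicate 4. Ch25h, which makes 25-hydroxycholesterol, was at 9.78 to 24.2 CPM against 59.0 to 79.8 CPM (−2.19 ± 0.25, adjusted p = 0.00137). Spp1, osteopontin, was at 2330 to 4590 CPM against 7490 to 10800 CPM, and Itgax, the integrin chain CD11c, at 4.83 to 10.3 CPM against 18.5 to 29.4 CPM. Both were lower without overlap between the groups. Without macrophage replicate 4, 9 of the 23 were lower, and with library totals 4 were higher and 4 lower. Of 30 lysosome and cathepsin genes, none was higher and 5 were lower, with a median of −0.33. Ctsk, the collagen-degrading cathepsin K, was 1.83-fold lower. The number of lower lysosome genes was 14 without macrophage replicate 4, 2 without macrophage replicate 1, 3 without macrophage replicate 3 or fibroblast replicate 1 or 3, and 8 under the replicate block. With library totals, 1 lysosome gene was higher and 3 were lower.

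Of 26 complement and phagocytosis genes, 4 were lower and none higher, with a median of −0.17 that turned to 0.01 with library totals. Havcr2, a receptor for exposed phosphatidylserine, was at 9.35 to 16.2 CPM against 26.8 to 34.9 CPM (−1.16 ± 0.16, adjusted p = 0.0028). C5ar1, the receptor for complement C5a, was 1.58-fold lower, a call lost without 4 of the 8 libraries (adjusted p from 0.0521 to 0.0603). With the replicate block 7 of the 26 were lower, without macrophage replicate 4 also 7, and without fibroblast replicate 2 or 4 only 2. Of 16 osteoclast genes and members of the RANKL axis, 5 were lower, with a median of −0.81. Acp5, the tartrate-resistant acid phosphatase, was at 9.04, 16, 11.3 and 5.35 CPM beside macrophages and at 68.4, 15, 31.6 and 19.3 CPM beside fibroblasts, so fibroblast replicate 2 lay within the macrophage range. The calls for Acp5 and for the fusion protein Dcstamp were lost without macrophage replicate 1 or 3 or fibroblast replicate 1 or 3 (adjusted p from 0.0738 to 0.0814 and from 0.0603 to 0.0753). Of the 16, 1 was lower without fibroblast replicate 1 or macrophage replicate 3, 2 without fibroblast replicate 3, 3 without macrophage replicate 1, and 8 with the replicate block. Against cell-free cores, 4 of these genes were higher beside fibroblasts.

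Among 31 inflammatory cytokines and receptors, 4 were higher and 5 lower, with a median of 0.06. Il6 itself, the cytokine that the mouse line was made to study, was not called. It stood at 13, 8.81, 3.50 and 8.12 CPM beside macrophages and at 6.33, 12.1, 5.15 and 9.43 CPM beside fibroblasts, a log2 fold change of 0.08 ± 0.37 (adjusted p = 0.889), and the sign turned when any of 3 single libraries was left out. Il6ra, its ligand-binding receptor, was higher, at 31.6, 33.3, 28.1 and 37.1 CPM against 19.9, 19.1, 17.6 and 17.7 CPM (0.87 ± 0.10, adjusted p = 0.00124). Cell-free cores carried Il6ra at 16.3 to 29.7 CPM, and neither comparison with them was called (adjusted p = 0.116 and 0.258). Il10ra, the receptor of the anti-inflammatory interleukin-10, was at 62.2 to 86.6 CPM against 35.1 to 46.0 CPM (0.84 ± 0.12, adjusted p = 0.00265). Il33, an alarmin that stromal cells keep in the nucleus, was lower, at 16.8 to 22.5 CPM against 28.6 to 45.6 CPM (−0.97 ± 0.15, adjusted p = 0.00375). Of 39 interferon-stimulated genes, 2 were higher and none lower, with a median of 0.07. Their share of higher genes was near the 5.28% over all genes tested. Oas2 was at 24.3 to 35.8 CPM against 9.43 to 18.6 CPM (1.24 ± 0.22, adjusted p = 0.0069). With library totals alone, 7 of the 39 were higher, and 1 was without macrophage replicate 3 or 4 or fibroblast replicate 1 or 3. The median was −0.13 without macrophage replicate 4. Against cell-free cores, 9 of them were lower beside fibroblasts and 2 beside macrophages.

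The matrix of the core was described by its collagens first. Of 11 fibrillar collagen genes, 3 were lower and none higher, with a median of −0.70, and 1 was lower without macrophage replicate 1 or 3 or fibroblast replicate 1 or 3. With library totals, 2 were higher and 1 lower. All 3 of the lower genes encode chains of type V collagen, which starts fibrils and sets their width. Col5a1 was at 344, 566, 642 and 325 CPM beside macrophages and at 1070, 783, 1060 and 951 CPM beside fibroblasts (−0.99 ± 0.22, adjusted p = 0.0159). The calls for Col5a2 and Col5a3, 1.56-fold and 1.97-fold lower, were lost without most single libraries (adjusted p from 0.0561 to 0.106 and from 0.054 to 0.0823) and with library totals, and that for Col5a2 also with the replicate block (adjusted p = 0.0534). The main fibril chains missed the threshold in the main fit. Col1a1 was at 5110, 6640, 8920 and 3680 CPM against 15800, 6260, 13200 and 12800 CPM (−0.93 ± 0.37, adjusted p = 0.0942), with fibroblast replicate 2 within the macrophage range. Col3a1 was at 2790, 6480, 7500 and 6620 CPM against 13700, 8540, 11500 and 11800 CPM (−0.91 ± 0.33, adjusted p = 0.0747), without overlap. With DESeq2, the study's own test, Col1a1 and Col3a1 were both called lower. Col3a1 was also called lower with no filter on low counts, with the sex of the core mouse as a block and in the fit of all 5 core groups. Of 14 genes of collagen VI and the fibril-associated collagens, 5 were lower and 3 higher. Col6a1, Col6a2 and Col6a3, the chains of the beaded collagen around cells, were 1.88-fold, 1.87-fold and 1.68-fold lower. The call for Col6a3 was lost without fibroblast replicate 1 (adjusted p = 0.0507). Col20a1 was 1.94-fold higher. Of these 14 genes, 2 were lower without fibroblast replicate 1 and 3 without macrophage replicate 1 or fibroblast replicate 3, and 1 was higher without macrophage replicate 1 or 3 or fibroblast replicate 1, 2 or 3.

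The enzymes that mature collagen were lower where they differed. Of 28 genes of collagen maturation and cross-linking, 6 were lower and none higher, with a median of −0.46, and 23 of the 28 had a log2 fold change below 0. P4ha1, a subunit of the prolyl hydroxylase that stabilises the collagen helix, was at 176, 290, 274 and 240 CPM beside macrophages and at 559, 462, 627 and 462 CPM beside fibroblasts (−1.05 ± 0.15, adjusted p = 0.00344). P4ha2 was 2.88-fold lower. Plod2, the lysyl hydroxylase of cross-linked collagen in scars, was at 39.5, 80.2, 70.1 and 66.3 CPM against 166, 138, 141 and 124 CPM (−1.10 ± 0.17, adjusted p = 0.00455). Plod1 was 1.62-fold lower. In these 4 genes the cell-free cores lay nearer to the macrophage cores. P4ha1 was at 252 to 285 CPM and Plod2 at 55.5 to 74.4 CPM without cells. The log2 fold change over cell-free cores was −0.14 beside macrophages (adjusted p = 0.582) and 0.93 beside fibroblasts (adjusted p = 0.00831) for P4ha1, and −0.04 (adjusted p = 0.922) and 1.08 (adjusted p = 0.00625) for Plod2. For the list, none was called in either direction beside macrophages against cell-free cores, and 6 were higher beside fibroblasts.

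Of 30 matricellular and adhesive glycoproteins, 11 were lower and 1 was higher, with a median of −0.62. Acan, the large proteoglycan of cartilage and of compressed tendon, had the largest decrease of the genes named here. It was at 0.736, 0.621, 1.12 and 0.369 CPM beside macrophages and at 13.5, 3.03, 5.93 and 7.97 CPM beside fibroblasts (−3.32 ± 0.47, adjusted p = 0.00299), and at 0.394 to 1.76 CPM in cell-free cores. Fibroblast hydrogels carried Acan at 66.9 ± 20 CPM (SD, n = 6). Fn1, the provisional matrix protein fibronectin, was at 4040, 6580, 6350 and 6750 CPM against 26500, 11800, 13400 and 13800 CPM (−1.41 ± 0.34, adjusted p = 0.0221), and its call was lost without macrophage replicate 3 (adjusted p = 0.0545). Vcan, the proteoglycan of loose matrix, was at 79.0 to 113 CPM against 182 to 396 CPM (−1.41 ± 0.23, adjusted p = 0.00472). Has2, which makes hyaluronan, was at 1.89 to 4.40 CPM against 6.24 to 7.22 CPM (−1.33 ± 0.26, adjusted p = 0.00968). Thbs1, thrombospondin 1, was the exception, at 724, 726, 1040 and 1750 CPM against 283, 333, 528 and 609 CPM. It was named after its values were seen, and its call was lost without fibroblast replicate 1, 2 or 3 (adjusted p from 0.0546 to 0.0637) and in the fit of all 5 core groups (adjusted p = 0.094). Of the 30, 6 were lower without fibroblast replicate 1 or 3, and 7 without macrophage replicate 1 or 3 or fibroblast replicate 4. Of 21 basement membrane genes, 3 were lower and 2 higher. Lamb1, a laminin chain, was 2.29-fold lower and Lama3 2.01-fold higher. Col4a1 was 1.61-fold lower and shares its locus with Col4a2 (−0.52), and its call was lost without fibroblast replicate 1 (adjusted p = 0.0526) and with library totals. With the replicate block 5 of the 21 were lower, without macrophage replicate 2 there were 6, and with library totals or without fibroblast replicate 1 there was 1. With library totals 3 were higher, and the median of the list, −0.13, became 0.05.

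The plasminogen system and the inhibitors of proteases were lower where they differed. Of 14 genes of protease inhibitors and the plasminogen system, 6 were lower and none higher, with a median of −0.80. Beside Plau, its receptor Plaur was at 5.40 to 7.24 CPM against 12.6 to 15.8 CPM (−1.12 ± 0.12, adjusted p = 0.0011). Serpine2, an inhibitor of urokinase and thrombin, was at 6.46 to 15.7 CPM against 34.5 to 46.3 CPM (−1.81 ± 0.22, adjusted p = 0.00181). Timp1, an inhibitor of metalloproteinases, was at 79.4, 191, 118 and 144 CPM against 381, 341, 322 and 335 CPM (−1.32 ± 0.21, adjusted p = 0.00424). Slpi, an inhibitor of leukocyte elastase, was 1.86-fold lower. Of 18 matrix metalloproteinases, 4 were lower and 3 higher, with a median of −0.13 that became 0.07 with library totals. Mmp2, which cuts denatured and type IV collagen, was at 692, 934, 775 and 672 CPM against 1610, 1330, 1400 and 1520 CPM (−0.88 ± 0.14, adjusted p = 0.00435). Mmp12, the elastase of macrophages, was at 34.9 to 75.5 CPM against 115 to 166 CPM (−1.25 ± 0.21, adjusted p = 0.00607). Mmp11 was 1.66-fold higher. Mmp9 was 1.99-fold lower, but its call was lost without macrophage replicate 1 or 3 or fibroblast replicate 1 or 3 (adjusted p from 0.0589 to 0.0655) and in the fit of all 5 core groups (adjusted p = 0.0896). The collagenase Mmp13 (−0.29, adjusted p = 0.325) and the stromelysin Mmp3 (−0.64, adjusted p = 0.161) were not called. Mmp3 was called lower with DESeq2. Of the 18, 2 were lower without macrophage replicate 3 or fibroblast replicate 1 or 3, and 1 was higher without macrophage replicate 1 or fibroblast replicate 1, 2 or 4.

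Tendon and fibroblast markers were lower in part. Of 19 tendon lineage genes, 3 were lower and none higher, with a median of −0.53. Scx, the transcription factor that marks tendon cells, was at 9.35, 11.7, 12.4 and 8.86 CPM beside macrophages and at 30.4, 17.3, 27.9 and 15.1 CPM beside fibroblasts (−1.04 ± 0.22, adjusted p = 0.013). Every macrophage core lay below every fibroblast core, and cell-free cores lay at 10.5 to 12.6 CPM. Sox9, the transcription factor of cartilage and of the tendon insertion, was at 2.77 to 5.12 CPM against 7.35 to 9.85 CPM (−0.97 ± 0.18, adjusted p = 0.00829), with cell-free cores at 4.82 to 5.46 CPM. Tnmd was at 62.2, 117, 141 and 221 CPM against 442, 126, 301 and 306 CPM (−1.06 ± 0.40, adjusted p = 0.0826), with overlap. It was called lower without macrophage replicate 4 or fibroblast replicate 2. The call for Chodl, 2.21-fold lower, was lost without 4 of the 8 libraries (adjusted p from 0.0583 to 0.0744). Without macrophage replicate 4, 5 of the 19 were lower. Of 23 markers of paratenon and adventitial fibroblasts, the cells of the sheath, 2 were higher and 4 lower. Pdpn, podoplanin, was at 133 to 192 CPM against 288 to 351 CPM (−0.84 ± 0.12, adjusted p = 0.00265), and Entpd1, the ATP-degrading enzyme CD39, was at 52.1 to 103 CPM against 23.5 to 27.7 CPM (1.46 ± 0.21, adjusted p = 0.00318). Prg4, lubricin, was 2.42-fold lower, a call lost without 5 of the 8 libraries (adjusted p from 0.0648 to 0.0818). Pdgfra, a receptor found on most fibroblasts, was nearly equal at 614 to 673 CPM and 592 to 727 CPM (0.03 ± 0.11, adjusted p = 0.871). Thy1 missed the fold threshold (−0.39, adjusted p = 0.037) and Acta2, smooth muscle actin, was not called (−0.13, adjusted p = 0.693). Of the 23 sheath markers, 1 was lower without macrophage replicate 2 or fibroblast replicate 1 or 4, and 2 without macrophage replicate 1 or fibroblast replicate 3. Of 24 myofibroblast and repair genes, 4 were lower, among them Fn1, and none was higher. Without fibroblast replicate 3, 1 was lower, without macrophage replicate 3 or fibroblast replicate 1, 2 were, and with the replicate block 6 were.

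Among regulators of growth factor signals, few members were called in either direction. Of 28 TGF-β and BMP ligands and regulators, 2 were higher and 3 lower, with a median of −0.28. The shares over all genes tested were 5.28% and 5.5%. Nog, noggin, which blocks BMPs, was at 4.81 to 7.01 CPM against 1.89 to 2.66 CPM (1.35 ± 0.17, adjusted p = 0.00201). Inhbb, a subunit of activin B, was at 63.4, 77.2, 43.1 and 54.8 CPM against 18.1, 43.5, 22.7 and 25.4 CPM, and its call was lost without fibroblast replicate 3 (adjusted p = 0.0513). Fstl1, a secreted follistatin-like protein, was at 414 to 791 CPM against 1110 to 1540 CPM (−1.05 ± 0.18, adjusted p = 0.00682). With the replicate block, 6 of the 28 were lower, without macrophage replicate 4, 7 were, and without macrophage replicate 1 or fibroblast replicate 1, 1 was. With library totals the balance turned, to 5 higher and 1 lower. Of 24 IGF and Wnt regulators, 2 were higher and 5 lower. Igfbp3 and Igfbp5 encode binding proteins that hold insulin-like growth factors. Igfbp3 was at 40.9, 62.6, 63.0 and 28.1 CPM beside macrophages, at 143, 158, 206 and 154 CPM beside fibroblasts (−1.70 ± 0.23, adjusted p = 0.00248) and at 24.0 to 58.5 CPM in cell-free cores. Igfbp5 was at 2770 to 3920 CPM, 5720 to 10600 CPM and 1410 to 3290 CPM in the same order. Fibroblast cores alone stood apart for both genes. Of the 24, 2 were lower without fibroblast replicate 3 or 4, and 3 without macrophage replicate 2 or fibroblast replicate 1. None was higher without macrophage replicate 2 or fibroblast replicate 1 or 3, and 1 was without any other single library but macrophage replicate 4. With library totals, 5 were higher and 3 lower. Of 26 growth and angiogenic factors, 3 were higher and 2 lower. Angptl4, which inhibits lipoprotein lipase, was 1.58-fold higher, a call lost in the fit of all 5 core groups (adjusted p = 0.0809), and Areg, an epidermal growth factor receptor ligand, was at 0 to 0.125 CPM against 0.421 to 0.882 CPM. With the replicate block 2 of the 26 were higher and 6 lower, and with library totals 5 were higher and 2 lower. Without macrophage replicate 3 or any 1 fibroblast replicate, 1 of the 26 was higher.

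Genes of the response to low oxygen and of glycolysis were lower as groups beside macrophages. Of 27 hypoxia response genes, 16 were lower and 1, Angptl4 with the limit given above, was higher, with a median of −0.75. Car9, a carbonic anhydrase induced when oxygen is scarce, was at 2.35, 4.11, 3.53 and 3.00 CPM beside macrophages and at 17.1, 20.8, 13.9 and 6.23 CPM beside fibroblasts (−2.09 ± 0.32, adjusted p = 0.00401). Cell-free cores held it at 2.99 to 4.34 CPM, in the range of the macrophage cores. Pdk1, which keeps pyruvate out of the mitochondria, was at 24.2, 45.4, 30.8 and 24.8 CPM against 102, 105, 93.7 and 62.4 CPM (−1.48 ± 0.21, adjusted p = 0.0028). Higd1a, a mitochondrial protein of the same response, was 2.17-fold lower. Of the 19 tested entries for 18 glycolysis genes, 14 were lower and none higher, with a median of −1.02. Slc2a1, the glucose transporter GLUT1, was at 21.4, 38.8, 22.0 and 24.2 CPM against 73.9, 89.6, 68.9 and 45.5 CPM (−1.33 ± 0.22, adjusted p = 0.00545). Pgk1 was at 18.6, 44.8, 30.6 and 24.1 CPM against 103, 111, 99.8 and 63.6 CPM (−1.62 ± 0.24, adjusted p = 0.00363). Ldha, lactate dehydrogenase A, was at 138, 275, 176 and 177 CPM against 515, 531, 486 and 356 CPM (−1.25 ± 0.19, adjusted p = 0.00403). In each of these genes macrophage replicate 2 was the highest of its group and fibroblast replicate 4 the lowest of its own, without overlap. Eno1, Gapdh and Pfkp were 2.54-fold, 1.92-fold and 1.62-fold lower.

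Against cell-free cores the same lists showed different counts for each niche. Beside fibroblasts, 17 of 27 hypoxia response genes were higher and none lower (median 0.98), and beside macrophages 2 were higher and none lower (median 0.01). For glycolysis, 5 of 19 were higher beside fibroblasts (median 0.46) and 2 were lower beside macrophages (median −0.50). Car9 had a log2 fold change over cell-free cores of 1.97 beside fibroblasts (adjusted p = 0.0169) and −0.15 beside macrophages (adjusted p = 0.696). Ldha had 0.87 (adjusted p = 0.011) and −0.40 (adjusted p = 0.199). The difference between these fold changes is the main comparison itself. Over the single-library omissions, 11 to 15 hypoxia genes and 13 to 15 glycolysis genes were lower beside macrophages than beside fibroblasts.

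Genes of cholesterol and fatty acid synthesis were lower as a group. All 30 members had a log2 fold change below 0 and 22 were lower, with a median of −0.66. Hmgcs1, which makes the precursor of mevalonate, was at 109, 181, 136 and 141 CPM beside macrophages and at 291, 269, 268 and 254 CPM beside fibroblasts (−0.88 ± 0.12, adjusted p = 0.00295). Hsd17b7, a later enzyme of the same path, was at 23.9, 38.0, 26.8 and 24.6 CPM against 66.8, 62.4, 59.4 and 58.1 CPM (−1.06 ± 0.13, adjusted p = 0.00172). Nsdhl, Cyp51 and Sqle, which act between squalene and cholesterol, were lower too, with log2 fold changes of −0.98, −0.97 and −0.81. Macrophage replicate 2 was the highest of its group in all 5 of these genes and still lay below all fibroblast cores. Against cell-free cores, 13 of the 30 were lower beside macrophages (median −0.48) and none was called beside fibroblasts (median 0.17). With library totals, 15 of the 30 were lower in the main comparison.

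Cell cycle genes were lower as a group. Of 40 members, 29 were lower and none higher, with a median of −0.76. Rrm2, the subunit of ribonucleotide reductase that supplies DNA precursors, was at 8.48, 8.51, 5.24 and 5.81 CPM beside macrophages and at 16.1, 21.9, 14.8 and 16.2 CPM beside fibroblasts (−1.23 ± 0.18, adjusted p = 0.00362). Mcm5, of the replicative helicase, was at 7.81, 9.72, 5.37 and 7.38 CPM against 17.3, 18.5, 14.7 and 19.4 CPM (−1.15 ± 0.16, adjusted p = 0.00308). Bub1, a kinase of the spindle checkpoint, and Tpx2, a spindle assembly factor, were 2.77-fold and 2.02-fold lower, and Ccne1, cyclin E1, was 2.25-fold lower. Against cell-free cores, 31 of the 40 were lower beside macrophages (median −1.26), and none was called beside fibroblasts (median −0.48). The summed level of the 40 genes was 341 to 509 CPM beside macrophages, 572 to 786 CPM beside fibroblasts, 647 to 1430 CPM in cell-free cores and 1090 to 1990 CPM in the fibroblast hydrogels. Without fibroblast replicate 1, 19 of the 40 were lower than beside fibroblasts, without fibroblast replicate 2 or with library totals 17 were, and replicates 3 and 4 alone gave 5.

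**Figure D4:**
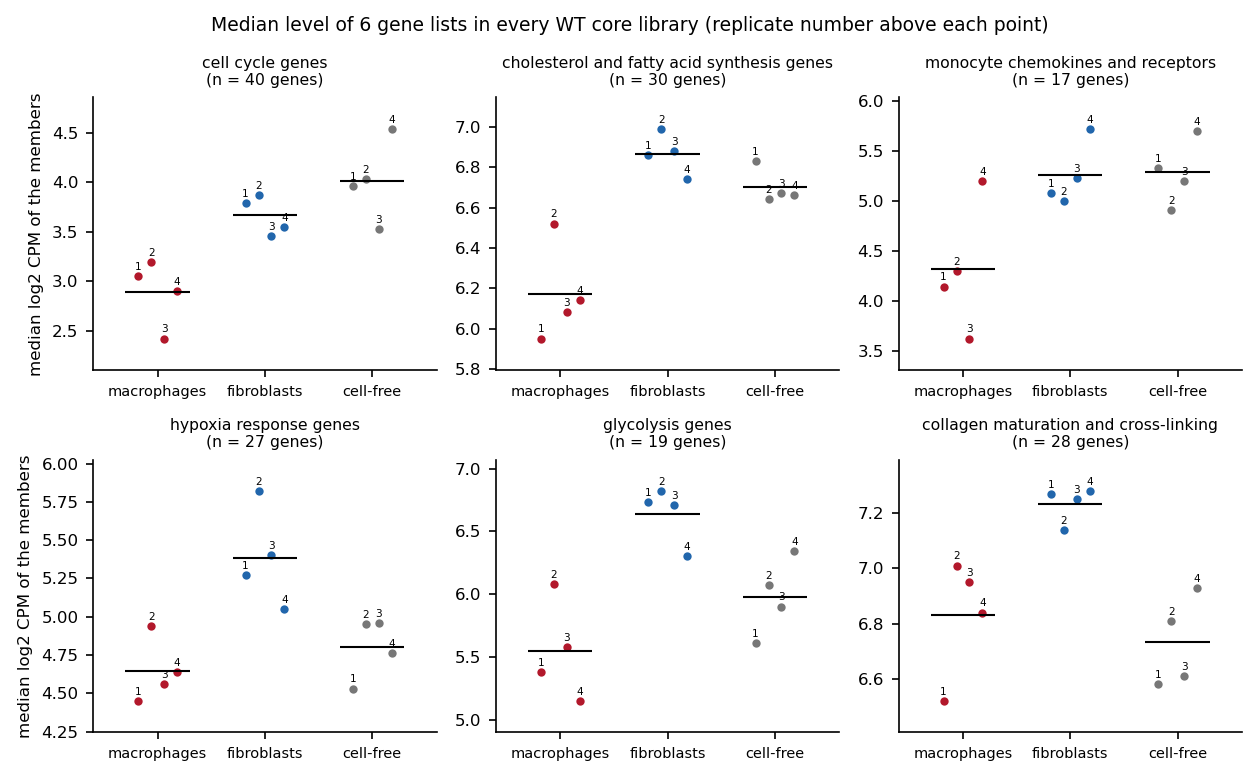
The median log2 CPM of the members of 6 gene lists in each of the 12 WT core libraries, with the replicate number above each point and a bar at the group mean. The cell cycle, cholesterol, hypoxia, glycolysis and collagen maturation medians lie lower in all 4 macrophage cores than in all 4 fibroblast cores; for monocyte chemokines, macrophage replicate 4 lies within the range of the fibroblast cores.

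Of 25 antioxidant genes tested, 4 were lower and 1 higher, with a median of −0.15 that became 0.03 with library totals. Over all genes tested, 5.5% were lower and 5.28% higher. With library totals 4 were higher and 3 lower, and over the single-library omissions 0 to 2 were higher. Hmox1, which degrades heme, was at 184, 254, 244 and 371 CPM beside macrophages and at 471, 630, 650 and 755 CPM beside fibroblasts (−1.19 ± 0.21, adjusted p = 0.00693), with cell-free cores at 513 to 958 CPM. Sod3, the extracellular superoxide dismutase of matrix, was at 79.3 to 119 CPM against 177 to 254 CPM (−1.07 ± 0.15, adjusted p = 0.0028), with cell-free cores at 82.3 to 140 CPM. Both were lower beside macrophages without overlap between the groups, and cell-free cores reached the range of the fibroblast cores for Hmox1 and lay below it for Sod3.

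**Figure D5:**
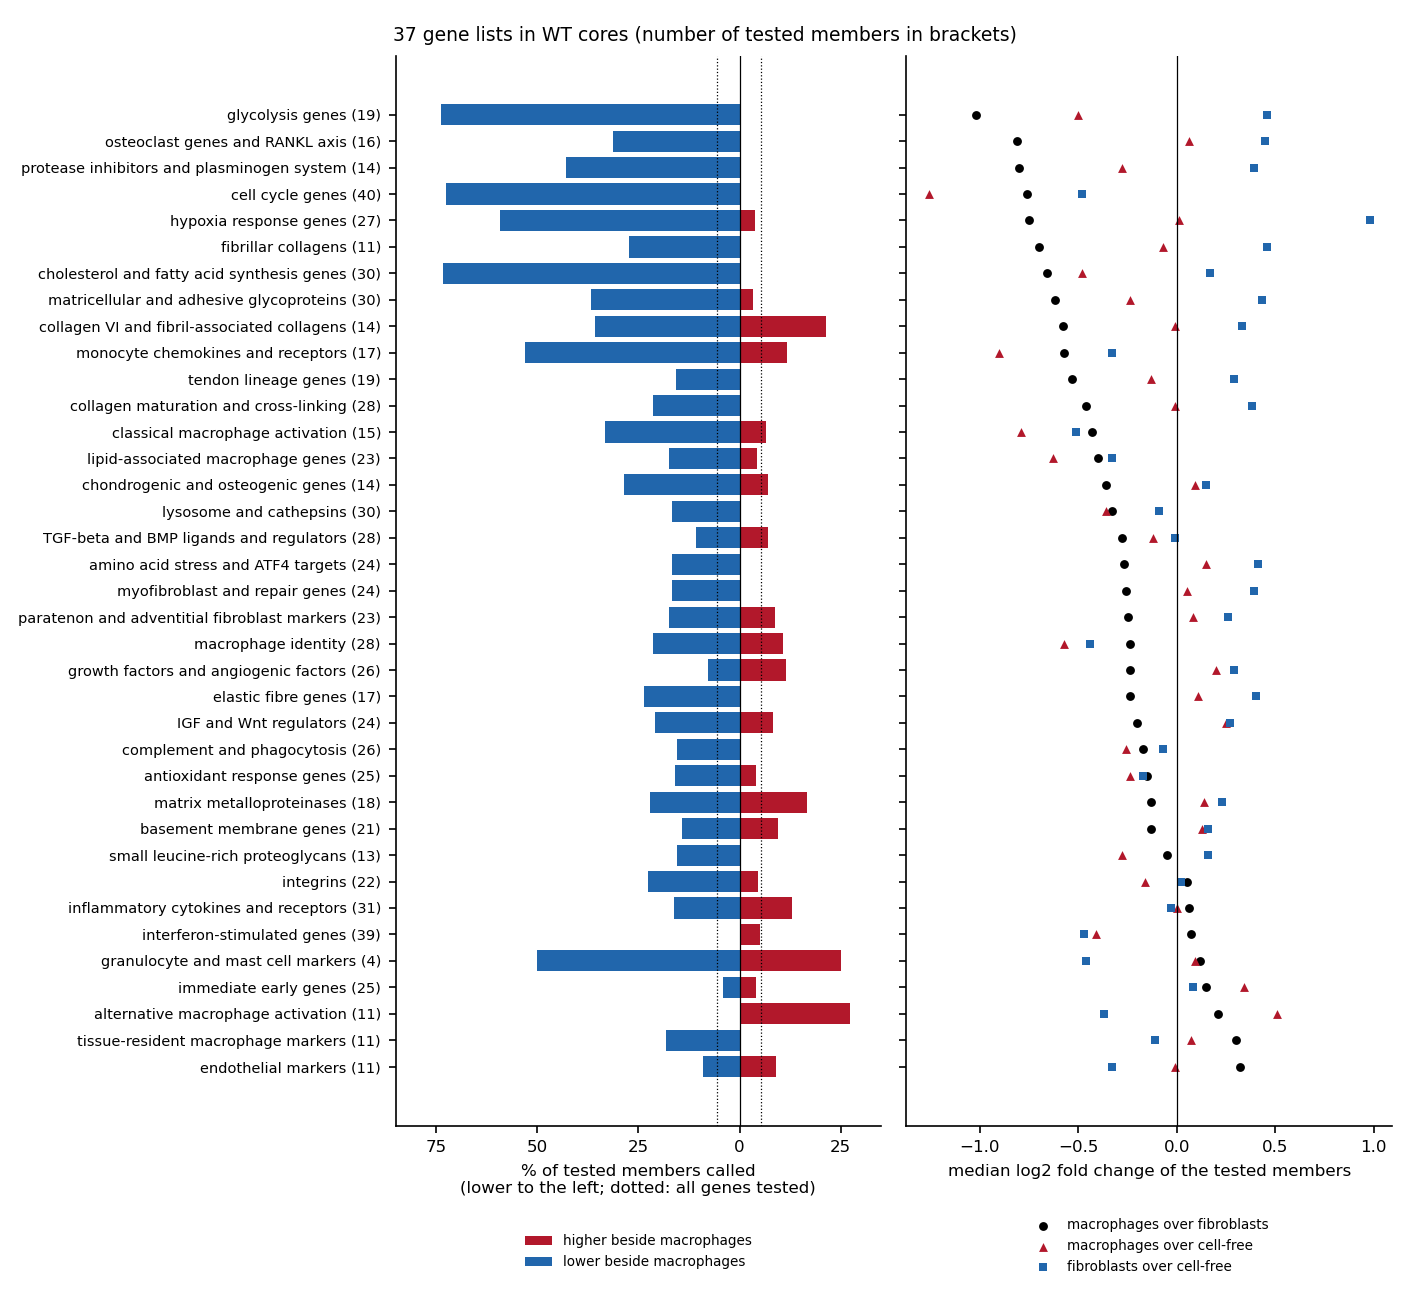
The 37 gene lists described, ordered by their median log2 fold change, with the number of tested members in brackets. The left panel gives the percent of members called higher (red) or lower (blue) beside macrophages than beside fibroblasts, with dotted lines at the shares over all genes tested (5.28% and 5.5%); the right panel gives each list's median log2 fold change in the main comparison (black circles, −1.02 for glycolysis to 0.32 for endothelial markers) and for each niche over cell-free cores (red triangles and blue squares).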

How the data were processed

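Total RNA depleted of ribosomal RNA was sequenced in stranded libraries. The authors deposited estimated counts per gene as whole numbers; the submitters' notes name kallisto 0.46.1, GRCm39 and DESeq2, without an annotation release. The table held 25700 genes, of which 25587 were given a symbol from a table of gene names. Groups were taken from the labels. Genes passing edgeR's filter on low counts were scaled by TMM and tested with edgeR's quasi-likelihood test (R 4.3.3, edgeR 4.0.16, limma 3.58.1), in a fit of the 8 libraries of each comparison. A call needed a Benjamini-Hochberg adjusted p under 0.05 over all genes tested and a log2 fold change beyond 0.5. CPM were scaled over 18 WT libraries, and SE was derived from the fold change and its F statistic. The script was tested on simulated data. The p-values measure the spread between the 4 mice of a group.

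Same-numbered libraries carry the same run code in their labels. Their deviations from the group means correlated at 0.17 to 0.25 between macrophage and fibroblast cores and at 0.19 to 0.34 between macrophage and cell-free cores. Between fibroblast and cell-free cores they correlated at 0.06 to 0.42. Pairs were taken where all 4 correlations were above 0.1, so the number paired the libraries in the first 2 comparisons. In those, 4 of 4 and 3 of 4 libraries correlated best with their own number, and in the last 2 of 4. The reported tests are without the block, so their p-values do not use the pairing by number. The block was fitted as an alternative. No 2 libraries of a group agreed within sampling noise (chi-square per degree of freedom of at least 20.4).

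The members and gene lists were chosen with earlier results of these data known. Named genes were the 15 higher and 15 lower genes with the lowest p whose log2 CPM averaged 1 or more, gene models without a proper name left out; Il6, Il6ra and genes the study names for WT cores; general macrophage and fibroblast markers; and up to 5 members with the lowest p of each list described. Some genes that the rule names are not reported here. Genes named outside that rule are said to be so, as are the neighbours that overlap a named gene. Alternatives were DESeq2 1.42.0, other scalings, filters and thresholds, blocks for replicate number, run code or sex of the core mouse, a fit of all 5 core groups, and leaving out each library. Replicates 1 and 2 alone and replicates 3 and 4 alone were added after seeing the data. In all, 49 lists were tested and 37 are described; of the others, counts are given with the further observations.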

Additional observations from a re-analysis of the deposited data

Results flagged for a closer look

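In 19 cases, 1 of the 4 libraries of a group stood apart from the other 3 for a named gene, in that its gap to the nearest of them took more of the group's range than Dixon's 95% critical value for 4 samples allows. Chance flags about 1 in 20 groups, and no cause was tested.

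Macrophage replicate 2 was low for Trpv4 at 14.2 CPM (next 16.3). The same library was high for Nr4a2 at 33.5 CPM (next 26.8), Acod1 at 6.21 CPM (next 3.04), Nsdhl at 26.8 CPM (next 18.4), Sod3 at 119 CPM (next 85.0) and Slc2a1 at 38.8 CPM (next 24.2). Macrophage replicate 4 was high for Slco2b1 at 8.90 CPM (next 5.31), Apoe at 2330 CPM (next 1090) and Entpd1 at 103 CPM (next 55.4). Macrophage replicate 1 was high for Col20a1 at 7.46 CPM (next 5.56) and low for Fn1 at 4040 CPM (next 6350). Macrophage replicate 3 was high for Has2 at 4.40 CPM (next 2.07).

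Among the cores beside fibroblasts, replicate 2 was high for Bcl2l1 at 80.1 CPM (next 66.6), Pdpn at 351 CPM (next 292), Kdr at 12.9 CPM (next 7.62) and Arg1 at 2.02 CPM (next 1.23), and low for Chodl at 1.76 CPM (next 2.79). Fibroblast replicate 1 was high for Sod3 at 254 CPM (next 189) and for Fn1 at 26500 CPM (next 13800).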

How the results depend on the processing

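The main comparison gave 865 higher and 901 lower genes. Without the fold change threshold it gave 1449 and 1751, at an adjusted p under 0.01 223 and 342, with library totals 2223 and 479, with replicates 1 and 2 alone 6 and 2, and with replicates 3 and 4 alone 123 and 222. Leaving out single libraries gave 354 to 1412 higher and 606 to 1111 lower genes. Against cell-free cores, the macrophage cores had 27 higher genes at an adjusted p under 0.01, 286 with DESeq2, 240 with the replicate block and 301 with the run code as a block, and 171 lower genes at an adjusted p under 0.01; leaving out single libraries gave 58 to 226 higher and 233 to 829 lower genes. The fibroblast cores had 398 higher and 297 lower genes without the fold change threshold, 17 and 2 at an adjusted p under 0.01, and 460 and 324 with DESeq2; 453 were lower with library totals and 33 with all 5 core groups in 1 fit, and leaving out single libraries gave 41 to 380 higher and 8 to 260 lower genes. For fibroblast against cell-free cores the same-numbered libraries were not taken as pairs, as their lowest correlation, 0.06, was under the limit of 0.1. The replicate block gave 296 higher and 215 lower genes there. The replicate block gave 970 higher and 1029 lower genes in the main comparison. The cause of these changes was not tested.

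Of 142 called genes named, 112 kept their call in all planned settings and 30 lost it in at least 1; the replicate block ended the call of 1, Col5a2. Of 13 named genes not called, 5 gained a call in at least 1 setting and none with the replicate block. These were Col3a1, Tnmd, Col1a1, Mmp3 and Cd68, each called lower. Signs that turned were all of genes not called. The log2 fold change of Il6 was −0.25 without macrophage replicate 1, −0.04 and −0.10 without fibroblast replicates 1 and 3, and −0.30 in replicates 3 and 4 alone, and it was 0.34 without macrophage replicate 3. That of Adgre1 was −0.02 with the replicate block or the run code as a block, −0.16 without macrophage replicate 4, −0.03 without fibroblast replicate 4 and −0.22 in replicates 1 and 2 alone. That of Ptprc was −0.03 without macrophage replicate 4 and −0.07 in replicates 1 and 2 alone, while it was 0.21 without macrophage replicate 3, 0.31 with library totals and 0.34 in replicates 3 and 4 alone. That of Pdgfra was −0.01 with no filter, 0 with all 5 core groups, −0.02 and −0.01 without fibroblast replicates 1 and 3, and −0.07 in replicates 3 and 4 alone, while it was 0.10 without fibroblast replicate 4, 0.13 in replicates 1 and 2 alone and 0.22 with library totals. That of Acta2 was 0.06 with library totals, 0.01 without fibroblast replicate 4 and 0.22 in replicates 1 and 2 alone, while it was −0.31 without fibroblast replicate 2 and −0.38 in replicates 3 and 4 alone.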

Other observations

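Further lists also differed in part between cores beside macrophages and beside fibroblasts. Of 14 chondrogenic and osteogenic genes, 4 were lower and 1 higher, with a median of −0.36. Alpl, the alkaline phosphatase of mineralising tissue, was at 2.63, 3.72, 4.46 and 3.09 CPM beside macrophages and at 12.1, 22.3, 15.2 and 30.9 CPM beside fibroblasts (−2.47 ± 0.29, edgeR adjusted p = 0.00174), and fibroblast hydrogels carried it at a mean of 413 CPM. Of 17 elastic fibre genes, 4 were lower. Fbln5, fibulin 5, was at 51.8 to 85.3 CPM against 98.9 to 136 CPM. With the replicate block 7 of the 17 were lower, and with library totals or without fibroblast replicate 3 only 1 was, and without macrophage replicate 1 or 3 or fibroblast replicate 1, 2 or 4 there were 2. Of 22 integrins, 5 were lower and 1, Itga6, was higher (1.88-fold), against 5.5% and 5.28% of all genes tested. Itga8 was 2.32-fold lower. Without macrophage replicate 3 or fibroblast replicate 1 or 4, 3 integrins were lower, and with library totals 5 were higher and 4 lower.

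Of 24 targets of the amino acid stress response, 4 were lower and 21 had a log2 fold change below 0. Trib3, a pseudokinase induced by that response, was at 2.52, 2.96, 2.34 and 2.03 CPM beside macrophages, at 7.04, 4.57, 7.75 and 8.71 CPM beside fibroblasts (−1.44 ± 0.21, edgeR adjusted p = 0.00329) and at 1.94 to 3.67 CPM in cell-free cores. Beside fibroblasts, 7 of these genes were higher than in cell-free cores. In the main comparison, 7 were lower without fibroblast replicate 2 and 2 without fibroblast replicate 3 or 4. Among 25 immediate early genes, 1 was higher and 1 lower, and 9 were higher with library totals. In the main fit both shares were near those over all genes tested, 5.28% and 5.5%. Nr4a2, a nuclear receptor induced by many signals, was at 25.5 to 33.5 CPM against 60.1 to 98.6 CPM.

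Markers of other cell types were read as sums. The summed level of endothelial markers was 41.1 to 51.3 CPM beside macrophages and 49.5 to 58.8 CPM beside fibroblasts, with Kdr 2.18-fold lower and Pecam1 3.73-fold higher. Granulocyte and mast cell markers summed to 20.5 to 33.4 CPM against 7.75 to 8.14 CPM. Of the 4 granulocyte and mast cell markers tested, 1, Csf3r, was higher at 17 to 30.1 CPM against 3.92 to 4.8 CPM, and 2 were lower, among them S100a8 at 0.138 to 0.502 CPM against 0.662 to 0.912 CPM (adjusted p = 0.147 in the fit of all 5 core groups). Neither was lower without macrophage replicate 3 or fibroblast replicate 1 or 3, and 1 was without macrophage replicate 1 or fibroblast replicate 2 or 4. Lymphocyte markers summed to 18 to 55.2 CPM against 8.31 to 12.1 CPM. The latter sum is led by Cd4, named after its values were seen, at 13.9, 31.6, 26.0 and 51.7 CPM against 5.87, 8.67, 10.7 and 6.91 CPM. Of 16 lymphocyte markers, 3 passed the filter on low counts. Whether cells of these types were present was not tested, nor was their part in the results.

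The remaining lists are given as counts, beside shares over all genes tested of 5.28% higher and 5.5% lower. None was called of 62 cytosolic ribosomal protein genes (median −0.22), 19 ADAMTS proteases (median 0.29), 7 neutrophil chemokines (median 0.53), 9 Schwann cell markers and 4 adipocyte markers. Of 8 genes of MHC class II presentation 1 was lower, of 7 monocyte markers 2 were lower, of 9 mural cell markers 1 was higher and 3 were lower, of 13 small leucine-rich proteoglycans 2 were lower (none without macrophage replicate 3 or fibroblast replicate 1 or 4), of 8 skeletal muscle markers 1 was higher and of 2 keratinocyte markers 1 was higher.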
